A study of Rattus norvegicus with 15 samples.

Results

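The insulin and insulin-like growth factor (IGF) axis was followed at the mRNA level through 10 genes: the growth factors Igf1 and Igf2, the receptors Igf1r and Insr, the adaptors Irs1 and Irs2, and the binding proteins Igfbp3, Igfbp4, Igfbp5 and Igfbp6. Members were all probes outside the array controls whose gene name in the array files was 1 of these 10 symbols, and each probe was kept apart. The rule took 20 of 41012 probes: 4 for Igf1, 5 for Irs2, 2 each for Igfbp3, Igfbp4 and Igfbp5, and 1 each for Igf2, Igf1r, Insr, Irs1 and Igfbp6. Of these, 19 were tested, against 27892 probes tested in all, because the Irs1 probe was well above background on 0 of 15 arrays.

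Whole-genome expression was measured in small intestine of 15 male rats in 3 groups of 5, with 1 rat on each one-colour array. Goto-Kakizaki (GK) rats, a nonobese line with spontaneous diabetes that was inbred from Wistar stock, were 16 wk old when they were randomised to gastric bypass or sham surgery, and tissue was taken 14 wk later after an overnight fast. GK-S-30 rats had Roux-en-Y gastric bypass with a Roux limb of 30 cm, the limb that carries food from the stomach pouch, and a piece 5 cm long was taken from that limb near the gastric anastomosis. GK-Sham-PF rats were pair-fed, and their bowel was cut 16 cm from the ligament of Treitz and rejoined without rearrangement, whereas Wistar rats had no operation. In both of these groups the segment lay 21 to 26 cm from the ligament of Treitz, which per the methods corresponds to the piece from the limb. GK-S-30 are called bypass rats and GK-Sham-PF sham rats from here on. Their pieces thus differed in surgery and in the place that the same stretch of bowel had after the rearrangement. Per the methods, sham rats were given the lowest mean food intake among the surgical groups. The age of the Wistar rats was not given in the labels, but the methods describe them as age-matched controls. The RNA came from whole bowel pieces, in which fewer cells of a type and less RNA per cell cannot be told apart.

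Insulin acts mainly through the insulin receptor, and the IGFs mainly through the related IGF1 receptor. Both receptors are tyrosine kinases that phosphorylate the adaptors IRS1 and IRS2, which in turn recruit PI3 kinase and switch on AKT. The IGF binding proteins carry the IGFs, extend their life and limit or direct their access to the receptor, and in the gut IGF1 is known for its growth effect on mucosa and muscle.

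Arrays were assigned to slides A to D by a number in their deposited names, taken to be that of the slide, as the sample labels name none. The 4 arrays of slide A were all from Wistar rats. Slide B carried 3 sham arrays beside the remaining Wistar array, slide C 2 arrays each from sham and bypass rats, and slide D 3 bypass arrays. In a fit with slide as a fixed block, differences from Wistar rats therefore rest on the 1 Wistar array of slide B. Each array had 66.7 to 74.8% of its probes well above background. The array of Wistar replicate 3 (75th percentile of processed intensity 207) and that of sham replicate 5 (208) were dimmer than the other 13 (302 to 357), and are called the dim arrays. Epithelial markers were high in every group, with 10 of 10 measured and a mean log2 intensity of 14.5 to 15.1 over the arrays. Levels of this list did not go against the labelled tissue.

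Probe sequences are shown for the genes on which the results turn. Genome positions are those of the array files (build rn4), and a position that spans far more than 60 bases means that the probe crosses an intron. The Igfbp3 probe A_44_P180127 (chr14:87961611-87962505, minus strand) and the Igfbp6 probe A_44_P378799 (chr7:140888422-140888481, plus strand) are printed whole because they belong to related binding proteins, of which Igfbp3 passed the test and Igfbp6 did not. They share a run of 12 bases, in capitals, and differ around it.
Igfbp3 A_44_P180127: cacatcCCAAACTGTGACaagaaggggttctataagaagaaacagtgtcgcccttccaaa
Igfbp6 A_44_P378799: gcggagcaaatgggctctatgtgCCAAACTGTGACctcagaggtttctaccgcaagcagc

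For Igf1, the last 30 bases are printed of the probes A_44_P126021 (chr7:24531970-24537063) and A_44_P421499 (chr7:24533810-24537048), both on the plus strand. The probes begin in different leader exons and end in the same downstream exon, whose bases are in capitals, so each may read transcripts from a different start of the gene.
Igf1 A_44_P126021: gacttcttgaagATAAAGATACACATCATG
Igf1 A_44_P421499: ggacgtaccaaaatgagcgcacctccaATA

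For Irs2, the first 30 bases are printed of both probes that passed the test in sham against Wistar. A_44_P684795 (chr16:83403814-83403873) lies on the plus strand with the other Irs2 probes. A_44_P242493 (chr16:83403513-83403572) is given on the minus strand and was designed from a partial mRNA of unknown product, so it may read RNA from the other strand, and its name Irs2 is uncertain.
Irs2 A_44_P684795: ttacgtccttaatttagtttacagaatgga
Irs2 A_44_P242493: gtcaacactgtgtaaggtttcaggagaccc

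Igfbp3, the main carrier of IGFs in blood, was the only gene of the axis with probes past the test when bypass rats were set against sham rats. In bypass against sham rats, 2 of 19 tested probes passed the test (10.5%), where 6.7% of all tested probes did, and both were Igfbp3 probes that were lower. By direction, 3.9% of all tested probes were higher and 2.8% lower. The other 17 probes did not pass, and without adjustment the same count of 2 had a p under 0.05. Levels here and below are log2 of quantile-normalized intensity, which can be compared between groups for a probe but not between probes, and a difference of 1 is a doubling.

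Igfbp3 probe A_42_P627998 (chr14:87960494-87960553, minus strand) read 14.70, 14.61, 14.76, 14.44 and 14.80 in Wistar replicates 1 to 5. In sham rats it read 15.07, 15.17, 14.76, 14.75 and 14.56. In bypass rats it read 13.27, 13.42, 14.00, 13.94 and 13.68. Every bypass array was below every array of the other groups, while the Wistar and sham arrays overlapped. The level fell by 1.20 ± 0.15 (SE) on the log2 scale against sham, which is 2.3-fold, with an adjusted p of 0.000392 by limma.

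The second Igfbp3 probe, A_44_P180127, read 11.97, 12.15, 12.74, 12.66 and 12.39 in bypass rats. It read 13.87, 13.98, 13.51, 13.50 and 13.10 in sham and 13.20, 13.10, 13.12, 12.92 and 13.44 in Wistar rats. Again no bypass array reached the other groups. The fall against sham was -1.21 ± 0.18 (SE; limma adjusted p = 0.000976). This probe is spotted 10 times on each array, and its spots had a median coefficient of variation of 3.94%. The falls read by both probes differed by 0.01 on the log2 scale (exact permutation test on the within-array difference, two-sided, p = 0.897).

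Groups and slides overlapped only in part, so the Igfbp3 difference was also taken within slide C, which held 2 rats of each group. It was -1.31 for A_42_P627998 and -1.24 for A_44_P180127. Once slide entered as a fixed block in the limma fit the estimates were these same values, since only slide C held both groups. Both probes still passed in that fit, with adjusted p of 0.00681 and 0.0173. With the dim arrays left out the differences were -1.27 and -1.33. For arrays whose groups do not overlap, the background in this comparison was 7.71% of all tested probes, and 2 of the 19 axis probes were in that state, both from Igfbp3.

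Against Wistar rats, Igfbp3 was also lower in bypass rats. A_42_P627998 fell by 1.00 ± 0.15 (SE; limma adjusted p = 0.000268) and A_44_P180127 by 0.77 ± 0.18 (SE; limma adjusted p = 0.00598). No slide held both groups, and after slide was fitted as a fixed block the values were -1.01 and -0.65, with adjusted p of 0.113 and 0.407. Between sham and Wistar rats the differences were 0.20 and 0.44, with 95% intervals of -0.13 to 0.53 and 0.05 to 0.82 and adjusted p of 0.558 and 0.187. In the comparisons with Wistar rats the 2 probes differed more than in bypass against sham. The first minus the second gave -0.22 for bypass and -0.24 for sham rats (exact permutation test, two-sided, p = 0.00794 and 0.0159). Over the 57 tests of probe pairs of 1 gene the adjusted values were 0.0905 and 0.129. The order of the means was therefore sham, Wistar and bypass for both probes, and the upper 2 groups did not differ past the threshold.

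**Figure D1:**
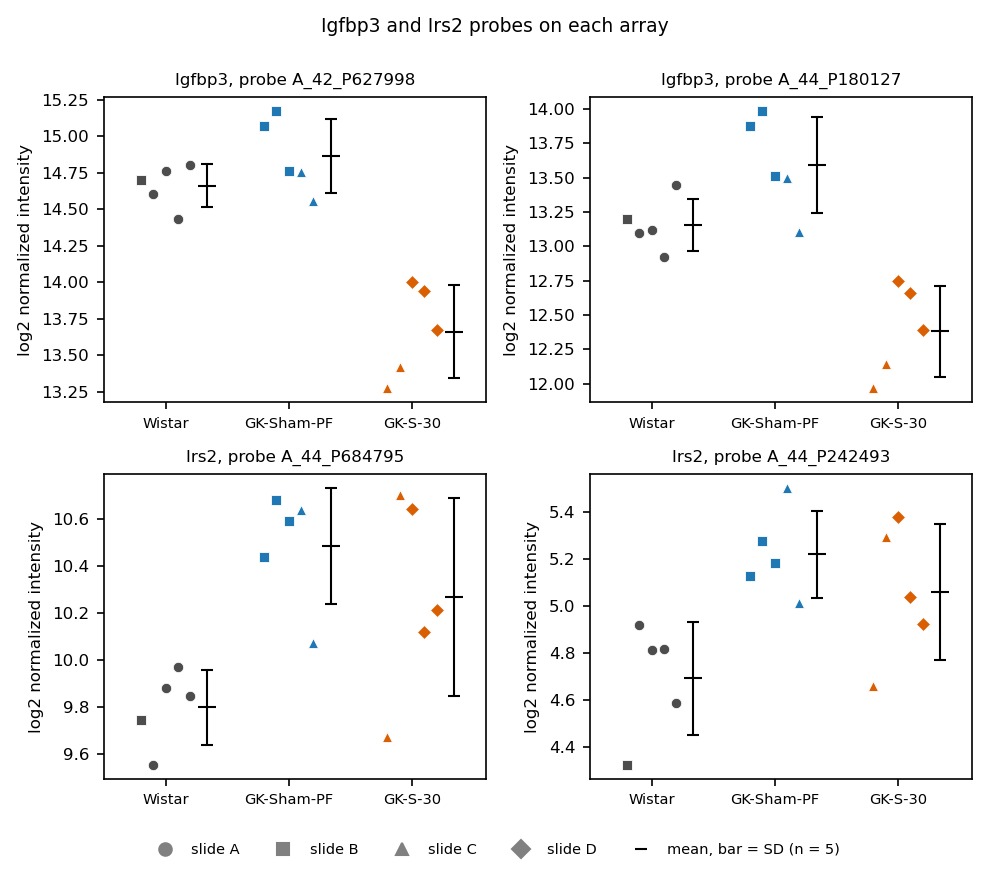
Log2 normalized intensity of both Igfbp3 probes and of both Irs2 probes that passed the test, by group. Each point is 1 rat, its shape gives the slide, and the bar is the mean with SD (n = 5). The 5 bypass arrays lie below the 10 others in both Igfbp3 panels, and the 5 Wistar arrays lie below the 5 sham arrays in both Irs2 panels.

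Several cell type markers moved in the same comparison as Igfbp3. Of the smooth muscle markers, 5 of the 9 measured were higher in bypass than in sham rats, and the list's mean log2 intensity was 12.15 to 12.50 in bypass, 10.74 to 11.83 in sham and 10.91 to 11.65 in Wistar rats. Of the fibroblast markers, 4 of 8 were higher, with list means of 11.02 to 11.21 against 10.42 to 10.93. These were Col1a1, Col1a2, Col3a1 and Lum. Fbln1 gave 0.03, Dcn -0.06, Vim -0.06 and Pdgfra -0.35, none past the test. Of the immune markers, 1 of the 4 measured, the T cell receptor subunit gene Cd3e, was lower by 0.76, and the list means were 8.27 to 8.46 against 8.68 to 8.99. Of the 4 measured endothelial markers, 1 passed: Vwf, the von Willebrand factor gene, was higher by 0.55 (adjusted p = 0.0125), while Pecam1 gave 0.17, Cdh5 -0.26 and Kdr -0.37. The endothelial list means overlapped, at 7.44 to 7.85 in bypass and 7.42 to 7.74 in sham rats. None of the 10 epithelial markers passed the test, and the enteric neuron and glia, adipose, pancreas and liver lists had 0 calls by limma in this comparison, with a lowest adjusted p of 0.0602. The part of these markers in the Igfbp3 difference was not tested.

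The summed normalized intensity of the smooth muscle list ran from 97448 to 123750 in bypass, 28684 to 62372 in sham and 31699 to 55837 in Wistar rats. That of the fibroblast list ran from 27296 to 30699, 20324 to 26981 and 21024 to 29736 in the same order. The immune sums were 1935 to 2378, 2553 to 2931 and 2314 to 3800, and the epithelial sums 590370 to 658590, 530610 to 663510 and 567900 to 707840. Acta2 of the smooth muscle list was not among the tested markers.

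**Figure D2:**
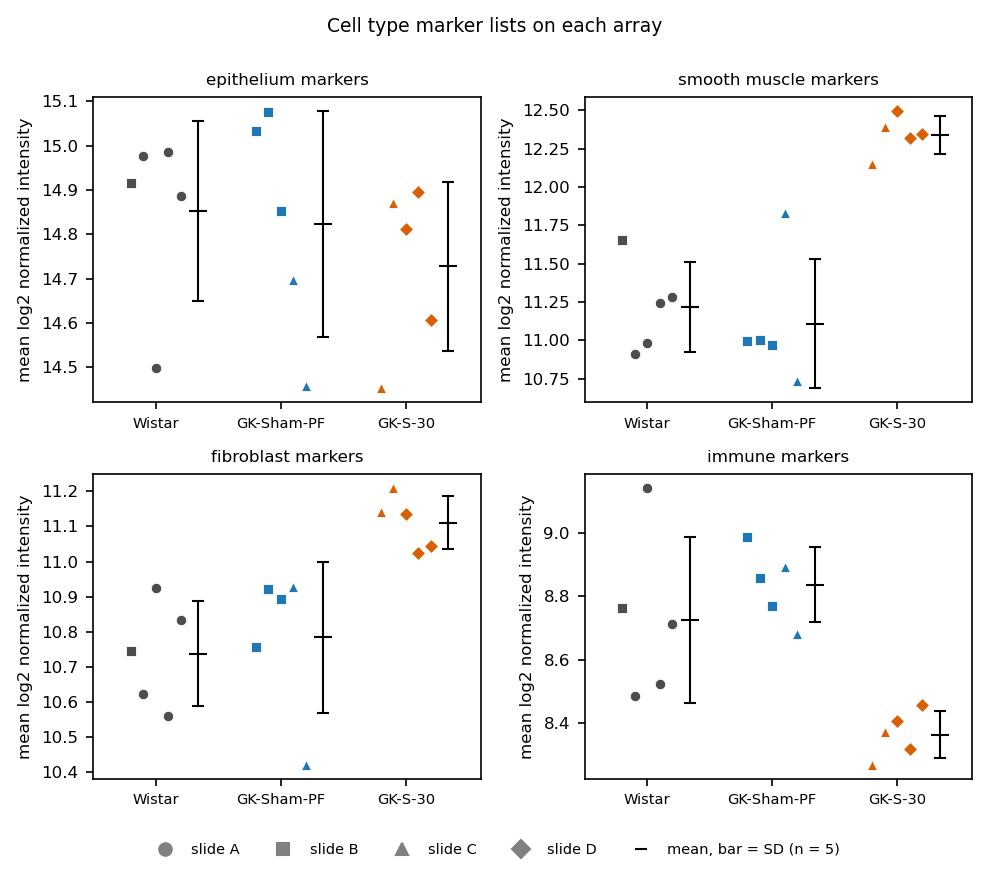
Mean log2 normalized intensity of the epithelial (10 genes), smooth muscle (9), fibroblast (8) and immune (4) markers on each array, by group, with slides as shapes and the mean with SD (n = 5). The bypass arrays lie above all others for smooth muscle and fibroblast markers and below all others for immune markers, while epithelial markers overlap between the groups.

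The probes most like Igfbp3 A_42_P627998 over the 15 arrays were those of Them7 (Pearson r = 0.96), Cd7 (0.95) and Slc25a3 (0.95). Cd7 encodes a surface protein of T and NK cells and Slc25a3 the mitochondrial phosphate carrier. These values are a description over arrays that share the 3 group means.

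Irs2 is the adaptor through which insulin signals in liver and islets. Some probes of that name, but not all, passed the test as higher in sham than in Wistar rats. Among them was the opposite-strand probe A_44_P242493, whose gene name is uncertain. In that comparison 2 of 19 tested probes passed (10.5%), against 7.83% of all tested probes, and both carried the name Irs2 and were higher. Of all tested probes 3.61% were higher and 4.22% lower. Without adjustment 7 of the 19 had a p under 0.05. The background of probes whose arrays do not overlap was 8.82%, and the same 2 axis probes were in that state.

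Irs2 probe A_44_P684795 read 9.74, 9.55, 9.88, 9.97 and 9.85 in Wistar rats. It read 10.44, 10.68, 10.59, 10.64 and 10.07 in sham rats and 9.67, 10.70, 10.64, 10.12 and 10.21 in bypass rats. All sham arrays were above all Wistar arrays, and the bypass arrays spanned both. The difference between sham and Wistar was 0.69 ± 0.18 (SE), or 1.61-fold (limma adjusted p = 0.0267).

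The opposite-strand probe A_44_P242493 read 4.32, 4.92, 4.81, 4.82 and 4.59 in Wistar, 5.13, 5.27, 5.18, 5.50 and 5.01 in sham and 4.66, 5.29, 5.38, 5.04 and 4.92 in bypass rats. Its sham arrays were likewise all above the Wistar arrays. The difference was 0.53 ± 0.15 (SE; limma adjusted p = 0.0429), but with normexp background correction it was 0.17 (adjusted p = 0.115).

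Both Irs2 calls were lost without some single arrays and with slide as a fixed block, though the differences were not smaller in that fit. Within slide B, which held 3 sham rats and 1 Wistar rat, the differences were 0.83 and 0.87, and once slide entered as a fixed block the adjusted p were 0.498 and 0.210. For A_44_P684795 the call was lost without Wistar replicate 1, 2 or 5 or sham replicate 2, 3 or 4, with differences of 0.62 to 0.79 over all single omissions and adjusted p of 0.00876 to 0.0704. For A_44_P242493 it was lost in 9 of 15 single omissions, with differences of 0.44 to 0.58 and adjusted p of 0.0265 to 0.115.

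The other 3 Irs2 probes lie further upstream, at chr16:83381868-83381927 (A_44_P400393), chr16:83382695-83382754 (A_44_P503503) and chr16:83383275-83383334 (A_44_P257518). Their differences between sham and Wistar rats were 0.46, 0.34 and 0.34, with adjusted p of 0.396, 0.618 and 0.176. All 5 Irs2 probes thus had a positive difference, of 0.34 to 0.69. After bypass none of the 5 passed against sham, with differences of -0.22 to -0.16, and none passed against Wistar, with 0.14 to 0.47. A_44_P684795 had an adjusted p of 0.0722 against Wistar.

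The probes most like Irs2 A_44_P684795 over the 15 arrays were those of Ankrd42 (Pearson r = 0.91), Btnl8 (0.88) and RT1-EC2 (0.88). Btnl8 belongs to the butyrophilin-like family and RT1-EC2 to the class I histocompatibility genes of the rat.

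The Irs1 probe A_44_P431109 (chr9:81585685-81585744, minus strand) read 1.80 to 3.43 over the 15 arrays and was not well above background on any. Its 10 spots had a median coefficient of variation of 37.7%. No difference is given for this adaptor.

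Igf1, the growth factor made in liver and in many tissues under growth hormone, was measured by 4 probes, of which 1 passed the test. Between bypass and Wistar rats, 3 of 19 axis probes passed (15.8%), against 22.8% of all tested probes: both Igfbp3 probes, which were lower, and Igf1 A_44_P126021, which was higher. Of all tested probes 10.9% were higher and 11.8% lower. Without adjustment 10 of the 19 had a p under 0.05. The background of probes whose arrays do not overlap was 18%, and 2 of the 19, both from Igfbp3, were in that state.

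Igf1 A_44_P126021 read 7.42, 6.62, 6.98, 6.65 and 6.98 in Wistar rats, 7.25, 7.79, 7.73, 7.47 and 7.08 in sham rats and 8.42, 7.90, 7.41, 7.49 and 7.92 in bypass rats. bypass rats were the highest as a group, but their lowest array, at 7.41, was just under the highest Wistar array, at 7.42. The difference from Wistar was 0.90 ± 0.21 (SE), or 1.86-fold (limma adjusted p = 0.00552). Sham-operated GK rats lay between, 0.53 above Wistar (adjusted p = 0.152) and 0.36 below bypass (adjusted p = 0.347). After slide was fitted as a fixed block the difference from Wistar was 1.05 with an adjusted p of 0.242, and it was 0.17 within slide B for sham against Wistar and 0.88 within slide C for bypass against sham.

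The Igf1 probe at the far downstream end of the gene, A_44_P366723 (chr7:24604715-24604774, plus strand), read 11.48, 10.81, 11.46, 10.65 and 11.02 in Wistar and 12.22, 11.51, 11.15, 11.35 and 11.89 in bypass rats. Its arrays overlapped, and the difference was 0.54 ± 0.21 (SE; limma adjusted p = 0.0769). Without the dim arrays it was 0.63 with an adjusted p of 0.0453, and with slide as a fixed block 0.53 with an adjusted p of 0.665. In sham rats it read 11.14, 11.61, 11.49, 11.44 and 11.09, between the other groups in mean.

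Neither class B leader probe of Igf1 passed the test. A_44_P421499 read a mean of 5.08 ± 0.28 (SD, n = 5) in Wistar, 5.17 ± 0.39 in sham and 5.11 ± 0.33 in bypass rats, and A_44_P421502 (chr7:24533750-24533809, plus strand) read 4.48 ± 0.32, 4.62 ± 0.28 and 4.44 ± 0.36. Between bypass and Wistar rats the 95% intervals of the difference were -0.39 to 0.46 and -0.45 to 0.37. The 10 spots of A_44_P421502 had a median coefficient of variation of 24.3%. In the current RefSeq annotation (GRCr8), the 60 bases of A_44_P421502 run from 71 to 12 bases before the annotated start of Igf1, and A_44_P421499 matches from 11 bases before that start to 46 bases past it, with its last 3 bases beyond the intron.

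Set against each class B probe within the same array, A_44_P126021 was higher by a further 0.87 and 0.93 in bypass than in Wistar rats, and by a further 0.36 when set against the far downstream probe. Each of these had p = 0.00794 in an exact permutation test over rats, two-sided, the smallest value that 5 against 5 arrays can give. Over the 57 tests of probe pairs of 1 gene the adjusted value was 0.0905, and none of the 57 passed. This test was added after the values had been seen.

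**Figure D3:**
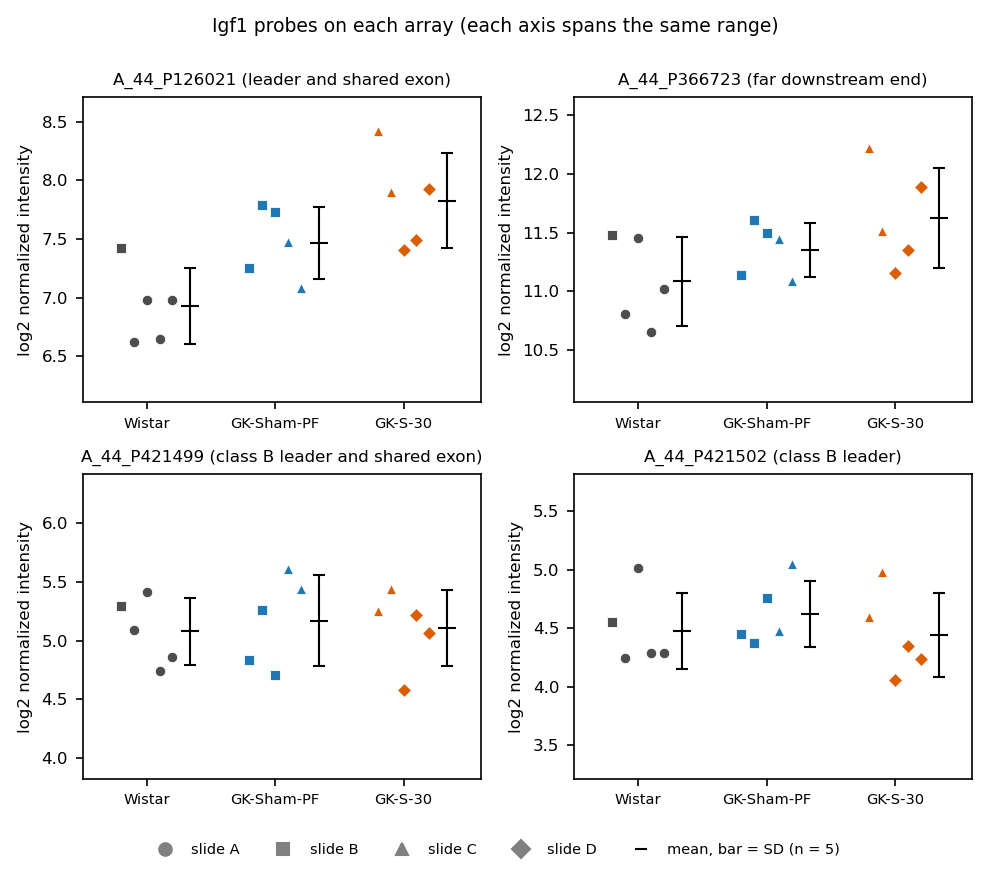
Log2 normalized intensity of the 4 Igf1 probes by group, each axis spanning the same range, with slides as shapes and the mean with SD (n = 5). The upper left probe goes from a mean of 6.93 in Wistar to 7.83 in bypass rats, and the lower 2 panels, the class B leader probes, overlap between all 3 groups.

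The probes most like Igf1 A_44_P366723, the brightest of the 4, were those of Ctsl (Pearson r = 0.85), Ywhag (0.85) and Slc39a6 (0.83). Ctsl encodes the lysosomal protease cathepsin L, Ywhag a 14-3-3 adaptor and Slc39a6 a zinc importer.

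Igf2, a fetal growth factor, was read by A_44_P1037953 (chr1:202906641-202906700, minus strand) at 8.57 ± 0.28 (SD, n = 5) in Wistar, 8.46 ± 0.25 in sham and 8.38 ± 0.26 in bypass rats. Its differences were -0.09 in bypass against sham, -0.11 in sham against Wistar and -0.20 in bypass against Wistar, and none passed. The interval of the last was -0.54 to 0.15.

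Of the receptors, Igf1r (A_44_P474037, chr1:122989150-122989209, plus strand) read 5.99 ± 0.49, 6.20 ± 0.50 and 6.14 ± 0.09 (SD, n = 5) in Wistar, sham and bypass rats. The dim arrays, at 5.15 and 5.35, were the lowest of the 15, and without them the difference between bypass and Wistar changed from 0.15 to -0.06. Insr (A_44_P179858, chr12:3087142-3087201, plus strand) read 5.66, 5.70, 6.69, 5.96 and 5.43 in Wistar rats. It read 5.41, 5.59, 5.65, 5.52 and 6.26 in sham and 4.75, 5.30, 5.20, 5.70 and 5.37 in bypass rats. The dim arrays were the highest of their groups, and the bypass arrays overlapped both other groups. The difference between bypass and Wistar rats was -0.63 ± 0.23 (SE, limma adjusted p = 0.0636), and it passed with scaling to the 75th percentile, at -0.71 with an adjusted p of 0.0435. With slide as a fixed block it was -0.97 with an adjusted p of 0.462, and over single omissions the adjusted p ran from 0.0404 to 0.152.

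Igfbp5, a binding protein of muscle and connective tissue, gave the largest differences that missed the threshold in sham against Wistar rats. A_44_P285534 (chr9:72003659-72003718, minus strand) read 5.30, 5.00, 5.34, 5.04 and 5.56 in Wistar, 5.46, 5.77, 6.03, 5.91 and 6.50 in sham and 6.13, 5.40, 5.14, 5.92 and 5.79 in bypass rats. Only 1 of the 5 sham arrays was under the highest Wistar array, and the difference was 0.69 ± 0.21 (SE; limma adjusted p = 0.0531). A_44_P264240 (chr9:72000312-72000371, minus strand) read 6.50, 6.33, 5.42, 6.21 and 6.50 in Wistar, 6.72, 7.13, 7.26, 7.03 and 6.42 in sham and 7.34, 6.43, 6.77, 6.56 and 6.76 in bypass rats. Its difference was 0.72 ± 0.22 (SE; limma adjusted p = 0.0659), and without the dim arrays it was 0.66 with an adjusted p of 0.0354. With slide as a random block both probes passed, at adjusted p of 0.0423 and 0.0489. With slide as a fixed block neither did: A_44_P285534 gave 0.45 and A_44_P264240 0.54, with limma adjusted p of 0.956 and 0.932. By the methods' comparison, a one-way model with Tukey correction at p under 0.05, 4 of the 19 probes passed in this pair, these 2 and both Irs2 probes, where 13.5% of all tested probes did. In bypass against sham the Igfbp5 differences were -0.26 and -0.14 (adjusted p = 0.538 and 0.798).

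Igfbp4, whose protein binds IGFs and is cut by the protease pappalysin, had its highest arrays in bypass rats without passing the test. A_43_P16767 (chr10:87834213-87834272, plus strand) read 12.14, 10.83, 11.21, 11.60 and 12.12 in bypass rats, against 10.81 to 11.38 in sham and 10.53 to 11.55 in Wistar rats. bypass replicate 2 was inside the range of both other groups, while 3 of the 5 bypass arrays were above them. A_44_P515317 (chr10:87829564-87829623, plus strand) read 7.28, 5.67, 6.39, 6.49 and 7.32 in bypass rats, with bypass replicate 2 again the lowest of its group. The differences from Wistar were 0.55 and 0.64 (adjusted p = 0.125 and 0.0950), and without bypass replicate 2 they were 0.73 and 0.88 (adjusted p = 0.0311 and 0.0102). Those were the largest over all single omissions, the smallest being 0.41 and 0.47, with adjusted p of up to 0.274 and 0.225. After slide was fitted as a fixed block the differences from Wistar were -0.01 and 0.04, with limma adjusted p of 0.994 and 0.985. Against Wistar rats, 6 of the 9 measured smooth muscle and 4 of the 8 fibroblast markers were higher in bypass rats. The part of these markers in the Igfbp4 values was not tested.

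Igfbp6, which prefers IGF2, read 9.67 ± 0.35 (SD, n = 5) in Wistar, 9.66 ± 0.40 in sham and 9.97 ± 0.33 in bypass rats. Its difference in bypass against sham was 0.31, with an interval of -0.15 to 0.76. Unlike both Igfbp3 probes, 1 of which shares a run of bases with it, the Igfbp6 probe passed in none of the 3 comparisons; the difference between the genes was not tested.

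**Figure D4:**
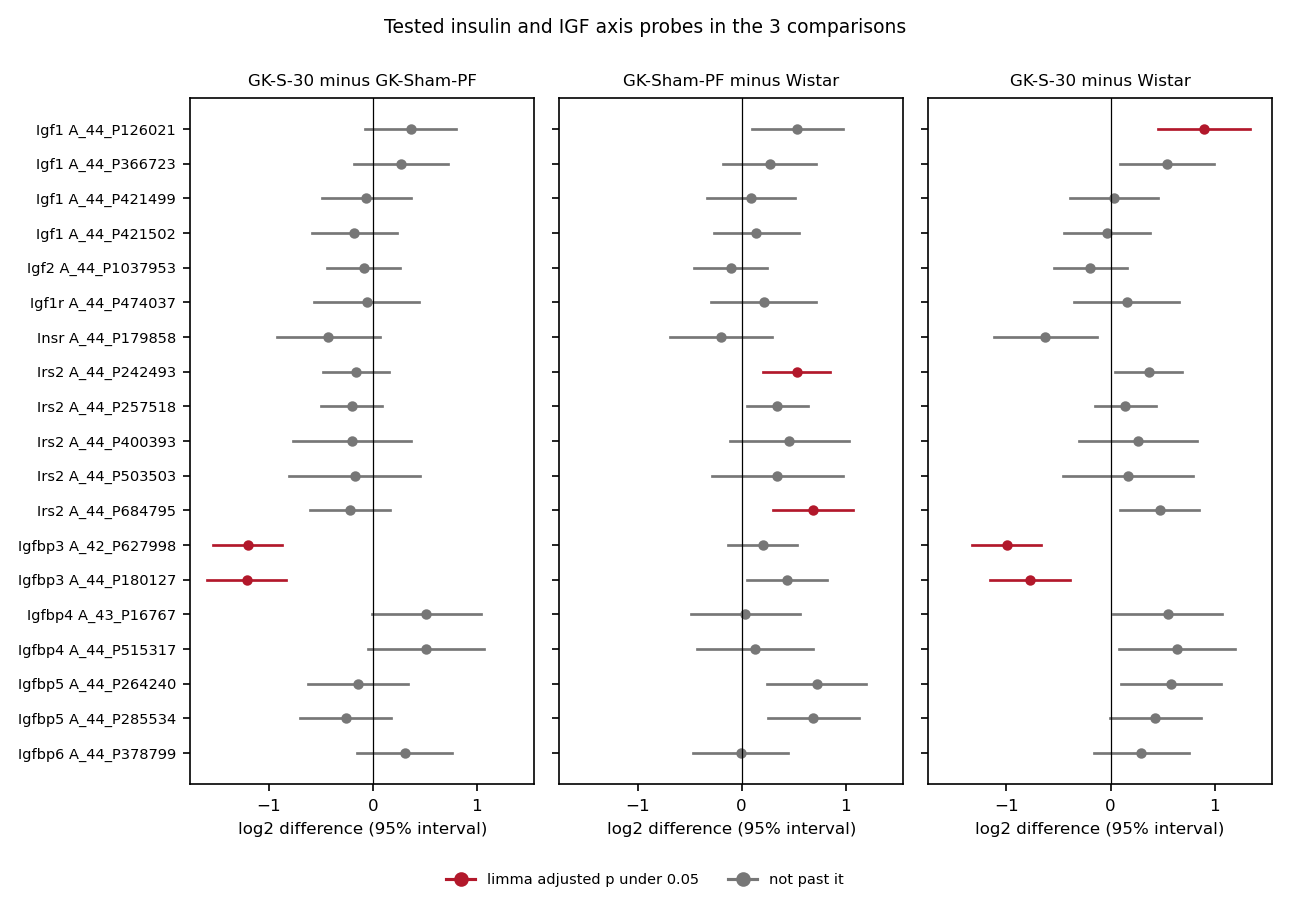
Log2 differences of the 19 tested axis probes with 95% intervals in the 3 comparisons, in red where the limma adjusted p was under 0.05. The red points are both Igfbp3 probes in the left and right panels, 2 Irs2 probes in the middle panel and 1 Igf1 probe in the right panel.

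Over all 19 axis probes the median difference was -0.16 in bypass against sham, with 5 of 19 positive, where the median of all tested probes was -0.03. It was 0.27 with 16 of 19 positive in sham against Wistar, where all probes had 0.00, and 0.26 with 14 of 19 positive in bypass against Wistar, where all had -0.03. Probes of 1 gene are not independent, and Irs2 gives 5 of the 19 and Igf1 4.

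Other genes of the pathway were taken from a list of 64, of which 53 were measured by 69 probes, 8 were not well above background and 3 had no probe. In bypass against sham, 2 of the 69 probes passed, where 6.7% of all tested probes did: Slc2a4, the insulin-responsive glucose transporter GLUT4, was higher by 0.65 ± 0.17 (SE; limma adjusted p = 0.0289) on 1 of its 2 probes, and Igf2bp2, an IGF2 mRNA-binding protein, was lower, at -0.79 ± 0.16 (adjusted p = 0.00955). The second Slc2a4 probe gave 0.53 (adjusted p = 0.209). Of the smooth muscle markers, 5 of the 9 measured were also higher in this comparison. The part of these markers in the Slc2a4 values, here and below, was not tested. In sham against Wistar 1 of 69 passed, where 7.83% of all did: Socs2, a brake on growth hormone signalling, at -1.05 ± 0.16 (SE; limma adjusted p = 0.00040). Ligands other than the members, receptors and PI3 kinase and AKT genes had 0 calls in both of these comparisons.

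Between bypass and Wistar rats 15 of the 69 pathway probes passed, 4 higher and 11 lower, where 22.8% of all tested probes passed. Socs2 was lower by a similar size as in the sham-operated rats, at -1.13 ± 0.16 (SE; limma adjusted p = 0.000107), and Socs1, another cytokine brake, was higher by 0.83 ± 0.17 (adjusted p = 0.00313). The adaptor Gab1 was lower on 1 of its 2 probes, at -0.71 ± 0.14 (adjusted p = 0.00170), and the second gave -0.04 (adjusted p = 0.912). Igf2bp2 was lower, at -0.83 ± 0.16 (adjusted p = 0.00193), as was the growth hormone signal carrier Stat5a, at -0.43 ± 0.10 (adjusted p = 0.00504). Slc2a4 was higher by 0.74 ± 0.17 (adjusted p = 0.00505) on the probe that passed above, and its second probe gave 0.34 (adjusted p = 0.326). The transcription factor gene Foxo1 and the protease gene Htra1 were also higher, and Ins2, Cblb, Gsk3a and Rictor were also lower. Shc1, Pik3r2 and Pappa were lower on 1 probe each, while the other 2 Shc1 probes gave -0.26 and -0.07, the other Pik3r2 probe -0.03 and the other Pappa probe -0.27, none past the test. Comparisons that share the sham or the Wistar rats are not independent of each other. The median difference over the 69 pathway probes was -0.06, -0.01 and -0.03 in the 3 comparisons, in the order given.

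**Figure D5:**
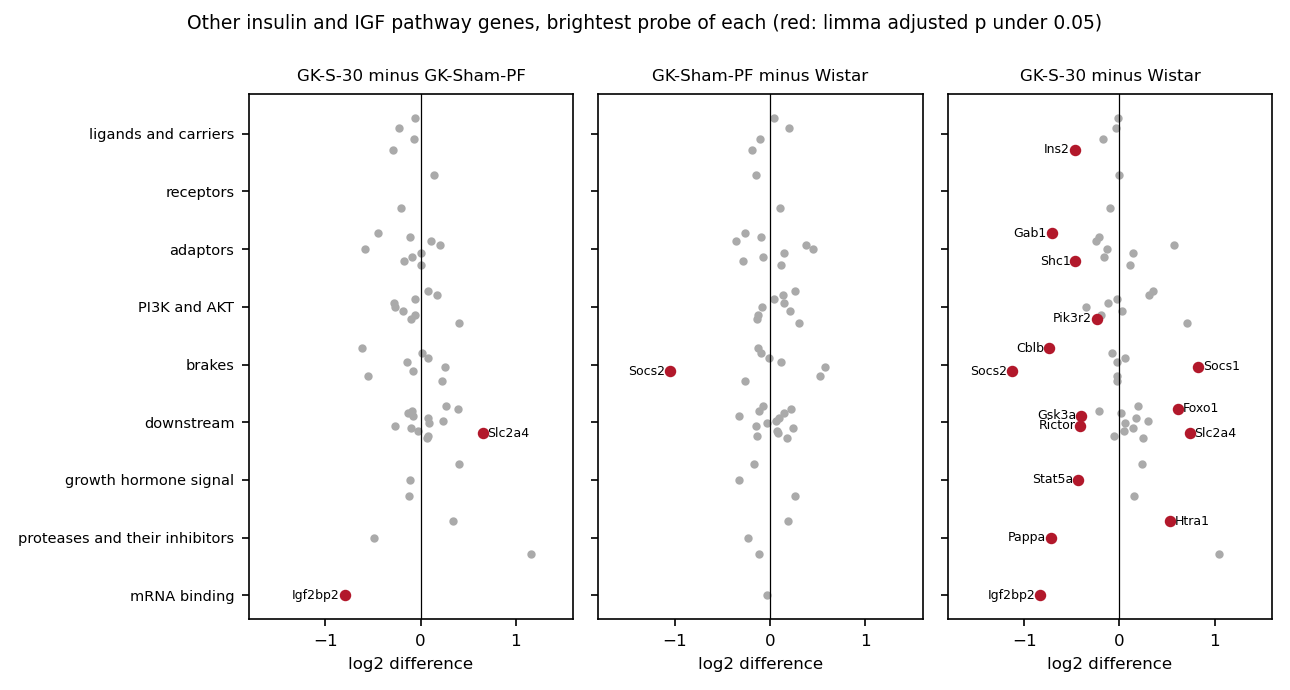
Log2 difference of the brightest probe of each of the 53 other pathway genes, by role, in the 3 comparisons, in red with the gene name where the limma adjusted p was under 0.05. There are 2 red points in the left panel, 1 in the middle panel and 15 in the right panel.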

How the data were processed

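The 15 arrays are Agilent one-colour whole rat genome arrays. Per the file headers, the authors extracted spot intensity with Feature Extraction 10.7.3.1 (build rn4), and the intensity used here was the deposited processed signal, already background-subtracted. The authors' deposited log2 values, quantile-normalized per the methods, served as an alternative. Unflagged spots of a probe were averaged, log2 taken and arrays quantile-normalized (limma 3.58.1, R 4.3.3). A probe was tested where all arrays of any group had it well above background. The 3 group pairs were compared in 1 limma fit over 15 arrays, with Benjamini-Hochberg adjustment over 27892 probes at 0.05. Intensity gives no counts, so the number of arrays limits the precision. Replicates are separate rats.

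Gene names of the members are those of the array files. Other probes were named through RefSeq: 17541 by accession, 3098 by symbol and 539 by an older symbol, while 117 kept the file's name and 19717 had none. All members and every probe of each were named, as were pathway genes that passed (values for the 6 with the smallest adjusted p) and the 3 probes of other genes with the highest Pearson correlation. The members, the pathway list and the marker lists were chosen with earlier results of these data known. The fit was tested on simulated data. Alternatives were another scaling, background correction, filter, probe choice, block or sample set, each array left out in turn, and a one-way model with Tukey correction (the methods' comparison). Exon and UTR annotation of rn4 was not used here. A marker of the immune list is not reported here.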

Additional observations from a re-analysis of the deposited data

Results flagged for a closer look

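In 9 of 57 groups of 5 arrays, 1 array stood apart from the other 4 of its group by Dixon's criterion, where chance flags about 1 in 20 groups, or 2.85 of 57. In 7 of the 9 the array was 1 of the dim ones. Wistar replicate 3 read 5.15 for Igf1r, 9.07 for Igf2, 5.42 for Igfbp5 A_44_P264240 and 7.50 for Irs2 A_44_P503503. sham replicate 5 read 5.35 for Igf1r, 6.26 for Insr and 7.30 for Irs2 A_44_P503503. Of these flagged values, those of Igf1r and Igfbp5 A_44_P264240 were low and those of Igf2, Insr and Irs2 A_44_P503503 high. The flagged shifts thus had no common direction, and probes of the same gene differed too. In sham rats, replicate 5 was the highest array for Igfbp5 A_44_P285534 (6.50), Irs2 A_44_P257518 (5.87) and Irs2 A_44_P400393 (5.33). It was the lowest sham array for Irs2 A_44_P684795 (10.07) and A_44_P242493 (5.01). bypass replicate 4 read 8.83 for Igf2, against 8.17 to 8.35 in its group, and bypass replicate 2 read 6.97 for Irs2 A_44_P503503, against 6.17 to 6.38. The part of array brightness in these values was not tested.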

How the results depend on the processing

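Both Igfbp3 calls in bypass against sham kept their direction and stayed past the threshold in every alternative that tested both probes. When 1 probe a gene was taken (the brightest, 9 axis genes), 1 axis probe passed in each comparison, and over all named genes 1230, 1083 and 3266 passed in bypass against sham, sham against Wistar and bypass against Wistar, from 1869, 2184 and 6352 over all probes. This alternative tested fewer features. With slide as a fixed block, 382, 414 and 454 probes passed, and 2, 0 and 0 axis probes; no slide held both bypass and Wistar rats, and the cause was not tested. With slide as a random block 4 axis probes passed in sham against Wistar. The one-way model with Tukey correction, unadjusted over probes, passed 3864, 3775 and 7398 probes, and 4 axis probes in sham against Wistar. In that comparison 1 axis probe passed with 75th percentile scaling, with normexp, without the filter or with sham replicates 4 and 5 left out. In bypass against Wistar, 6 passed with 75th percentile scaling and 5 without the dim arrays.

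Leaving out 1 array at a time gave 2 to 2, 0 to 4 and 3 to 5 axis probes in the same order of comparisons, and 1197 to 2379, 1689 to 2416 and 5270 to 7040 of all probes. Without sham replicate 1 or 2 the first of these counts was 1197 or 1238. With sham replicates 4 and 5 left out, an alternative chosen after seeing the data, it was 1200. Replicate numbers did not pair the rats: correlations of same-numbered arrays ran from -0.28 to 0.19, and 1 of 15 arrays correlated best with its own number. With the replicate block 1211 probes passed in bypass against sham, and the axis counts were 2, 2 and 4. No called value changed sign.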
